A study of Mus musculus with 2 samples.

Results

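The 10 genes described here encode the enzymes that write and remove DNA methylation and the core subunits of Polycomb repressive complex 2 (PRC2): Dnmt1, Dnmt3a, Dnmt3b, Tet1, Tet2, Tet3, Ezh1, Ezh2, Suz12 and Eed. They were chosen by name for their function from 53273 annotated genes. No measured value entered the rule, but earlier results of these data were known. All 10 had counts in each of the 4 gates. The cells were single bone marrow cells of 8-week-old C57BL/6 mice that carry the Fucci cell cycle reporter, in which an orange protein (mKO2) fused to a fragment of Cdt1 accumulates in G0 and G1 and a green protein (mAG) fused to a fragment of geminin accumulates in S, G2 and M. The 4 gates, each of 48 cells, were mKO2high and mKO2low, which shared 1 library, and mKO2neg and mAG+, which shared the other. Strain, tissue and age were the same in all 4 gates, the labels name no allele beyond the reporter and no treatment, and they name no animals, so each gate is 1 sample and no difference below has a replicate check. The series concerns quiescent blood stem cells, while the sample labels give bone marrow and the reporter colours as the only description of the cells.

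In mammals, Dnmt1 copies methylation onto the new DNA strand behind the replication fork, Dnmt3a and Dnmt3b methylate sites that carried no mark, and the Tet dioxygenases oxidise 5-methylcytosine as a step toward its removal. PRC2 methylates histone H3 at lysine 27 through its catalytic subunit Ezh2 or Ezh1, held together by Suz12 and Eed, and the mark is associated with silenced genes. In blood stem cells, Dnmt3a and Tet2 are among the genes most often mutated in clonal haematopoiesis, and loss of either enlarges the stem cell pool in mice.

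Summed counts per gate ran from 934036 to 2791584 and the median counts per cell from 14510.5 in mKO2high to 45177 in mAG+, with single cells between 0 and 210516. The library of the gate and the gate itself cannot be told apart in any comparison of mKO2neg with mKO2low or of mAG+ with mKO2high. The deposited gene labels were displaced by 1 gene, so the counts of each gene were read from the label just before it in the genome annotation. Read in that way, 92.6% of all counts lay at protein-coding genes, against 51.9% under the labels as deposited. Within 10 genes on either side of each of the 10 enzymes, the share ran from 87.8% to 100%, against 0.954% to 84.6%. Stem and progenitor markers, 10 of 10 with counts, summed to between 1751 CPM (the gene's counts scaled to an equal total in every gate) in mAG+ and 2593 in mKO2high. The 7 proliferation markers summed to 171 CPM in mKO2high cells, 395 in mKO2low, 723 in mKO2neg and 3285 in mAG+. Dnmt1, Ezh2 and Suz12 below share the high end of this order, and the part of dividing cells in their values was not tested. Erythroid markers summed to between 198 and 380 CPM, granulocyte and monocyte markers to between 371 and 490, megakaryocyte markers to between 71.6 and 281, B cell markers to between 73.4 and 151, macrophage markers to between 18.0 and 36.2, T and NK cell markers to between 4.28 and 40.8, and stromal and endothelial markers to between 22.9 and 33.3, with no count of Cd3e, Lepr or Cdh5. In summed counts, fewer cells with a transcript and less of it per cell cannot be told apart, so the gate sums of the 10 genes are given with the number of cells with a count. All intervals cover counting error only and treat each read as independent. They are too narrow where several reads came from the same molecule.

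Of the 10 genes, 3 (Dnmt1, Ezh2 and Suz12) held an E2F-type motif in a RefSeq promoter window (250 bases before to 50 after a start). These are shown because these are the members whose level in mAG+ lay above that of every other gate beyond counting error, and a Dnmt3a promoter is shown as that of the gene with the opposite ends. Capitals mark matches to TTTCCCGC, TTTGGCGC, TTTCGCGC or TTTGCCGC, the 4 forms searched on both strands. Coordinates are those of GRCm38.p6, the assembly of mm10, and each sequence is given on the strand of its gene.
Dnmt1, chr9:20952827-20952850 (minus strand): ttccgcgcGCGCGAAAaagccggg
Dnmt1, chr9:20952575-20952598 (minus strand): gggcagcgTTTGGCGCgggctgtg
Ezh2, chr6:47595012-47595035 (minus strand): ttgctgcgTTTGGCGCtcggtccg
Suz12, chr11:79992856-79993105 (plus strand): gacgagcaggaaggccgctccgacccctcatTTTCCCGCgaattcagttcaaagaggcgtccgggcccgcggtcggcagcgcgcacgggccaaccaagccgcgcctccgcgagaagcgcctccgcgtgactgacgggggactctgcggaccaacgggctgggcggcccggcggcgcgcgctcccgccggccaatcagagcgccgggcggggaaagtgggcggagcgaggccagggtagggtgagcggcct
Dnmt3a, chr12:3806830-3806979 (plus strand): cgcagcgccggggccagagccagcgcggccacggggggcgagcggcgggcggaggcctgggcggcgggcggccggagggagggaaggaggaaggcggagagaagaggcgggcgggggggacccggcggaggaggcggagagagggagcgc

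The Dnmt1 and Ezh2 stretches lie in annotated untranslated exon sequence of at least 1 transcript, and the Suz12 stretch lies just upstream of the gene. The Dnmt3a stretch lies inside the bounds of the gene and in no annotated exon. Numbered from the start of the window's transcript, with no base 0, the Suz12 match spans -219 to -212, the Ezh2 match 4 to 11, and the Dnmt1 matches -219 to -212 and 34 to 41 of the third of its 3 windows. The motif was present in 2.26% of all 32851 RefSeq promoter windows. This share and those below are per window, while a gene is counted here if any of its windows holds a match. The 10 genes had 14 windows, and of the Dnmt1 windows only the third held the motif. A CCAAT box (CCAAT, both strands) was found in Dnmt1, Tet3, Ezh2, Suz12 and Eed and in 37.4% of all windows, and the cell cycle homology region (TTTGAA or TTCGAA, both strands) in Dnmt1, Dnmt3b, Suz12 and Eed and in 19.2% of all windows. CCAAT boxes in the Dnmt1 promoter overlapped one another in part. The printed Dnmt3a stretch and the whole of its 3 windows held none of the 3 motifs. These are matches of letters only, and no binding was measured.

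Dnmt1, the maintenance methyltransferase (chr9:20907209-20959888, minus strand), was highest in mAG+ cells. Its level was 79.2 CPM in mKO2high (Poisson 95% interval 62.2 to 99.5), 105 in mKO2low (89.7 to 121), 84.5 in mKO2neg (70.9 to 100.01) and 290 in mAG+ (270.2 to 310.5). It was counted in 14, 26, 18 and 38 of 48 cells in that order. The interval of mAG+ lay apart from those of the other 3 gates, whose neighbouring intervals overlapped. Against mKO2neg, its partner in the library, mAG+ was 3.41-fold higher (log2 ratio 1.77, 1.51 to 2.05). Of the Dnmt1 counts in mKO2neg, 48.5% came from the deepest cell of the gate, which held 13.1% of all its counts, 74.1% of its Mki67 counts and 63.3% of its Top2a counts, and the log2 ratio was 2.49 once the deepest cells were left out. With every cell thinned to 5000 counts, Dnmt1 was counted in 12.8% of mKO2high cells, 31.2% of mKO2low, 13.95% of mKO2neg and 51.1% of mAG+ cells. In that draw the log2 ratio of mKO2low against mKO2high was 1.90, against 0.40 (0.00 to 0.81) from all counts. Among the settings run, this difference was past 2-fold only there. The thinned mKO2high value rested on 5 counts of a single random draw. With equal weight for each cell, Dnmt1 was at 66.4 CPM in mKO2high and 91.4 in mKO2low.

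Dnmt3a, a de novo methyltransferase (chr12:3806007-3914443, plus strand), was highest in mKO2high and lowest in mAG+. Its level was 214 CPM in mKO2high (185 to 246), 116 in mKO2low (101 to 134), 85.2 in mKO2neg (71.5 to 101) and 48.4 in mAG+ (40.5 to 57.2). The intervals of mKO2low and mKO2neg overlapped, and the other neighbours in this order did not. The step was under 2-fold within each library, with a log2 ratio of -0.88 (-1.17 to -0.59) for mKO2low against mKO2high and of -0.81 (-1.17 to -0.46) for mAG+ against mKO2neg. Across the libraries mAG+ was 4.39-fold lower than mKO2high (log2 ratio -2.13, -2.47 to -1.82). The number of cells with a count did not follow this order, at 22, 29, 18 and 20 of 48. A single cell held 31.5% of the counts in mKO2high and 32.1% in mKO2neg. With equal weight for each cell, mKO2low against mKO2high was at -0.04, and at equal depth it was at -0.05, while mAG+ against mKO2neg was at -0.10 and 0.18. Across the libraries, mKO2neg against mKO2low was at -0.45 from all counts, with an interval below 0 (-0.77 to -0.13) although the gate intervals overlapped. It was past 2-fold in these 2 settings, at -1.03 and -1.44, and mAG+ against mKO2high kept its direction, at -1.18 and -1.30. At equal depth the levels were 138 CPM in mKO2high and 133 in mKO2low, against 46.5 in mKO2neg and 53.3 in mAG+. The step at equal depth thus lay between the gates of the 2 libraries, where gate and library cannot be told apart.

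A single mAG+ cell bears on the Dnmt3a value of its gate. It was picked for holding most counts of the B cell markers Cd79a, Ms4a1 and Ebf1, with 191 of their 214 over all cells. Cd79b, also in the summed B cell list, was not among these counts. Its level lay between 70.9 and 98.0 CPM across the gates, so it does not set mAG+ apart. The picked cell held 24.4% of the gate's Dnmt3a counts, although 5.12% of the gate's counts in all. Without that cell the log2 ratio of Dnmt3a in mAG+ against mKO2neg was -1.14, past 2-fold. The same cell held 23.3% of the Ezh1, 16.4% of the Ezh2, 17.3% of the Suz12 and 12.4% of the Eed counts of mAG+, and without it Ezh2 was at 1.13 and Suz12 at 0.71 against mKO2neg.

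Dnmt3b, the other de novo methyltransferase (chr2:153649450-153687730, plus strand), had nearly the same level in all gates. It was at 51.4 CPM in mKO2high (37.9 to 68.1), 54.6 in mKO2low (44.1 to 66.9), 54.1 in mKO2neg (43.3 to 66.7) and 54.8 in mAG+ (46.5 to 64.2), and its log2 ratio was 0.09 (-0.43 to 0.62) within the mKO2high and mKO2low library and 0.02 (-0.37 to 0.42) within the other. It was counted in 11, 20, 15 and 24 of 48 cells. At equal depth it was counted in 4.44% of mAG+ cells, against 22.9% of mKO2low and 13.95% of mKO2neg cells, and the log2 ratio of mAG+ against mKO2neg was -1.64. That value rested on 3 counts in mAG+ and 11 in mKO2neg of a single random draw. With equal weight for each cell, Dnmt3b was at 59.1 CPM in mAG+ and 63.5 in mKO2neg.

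**Figure D1:**
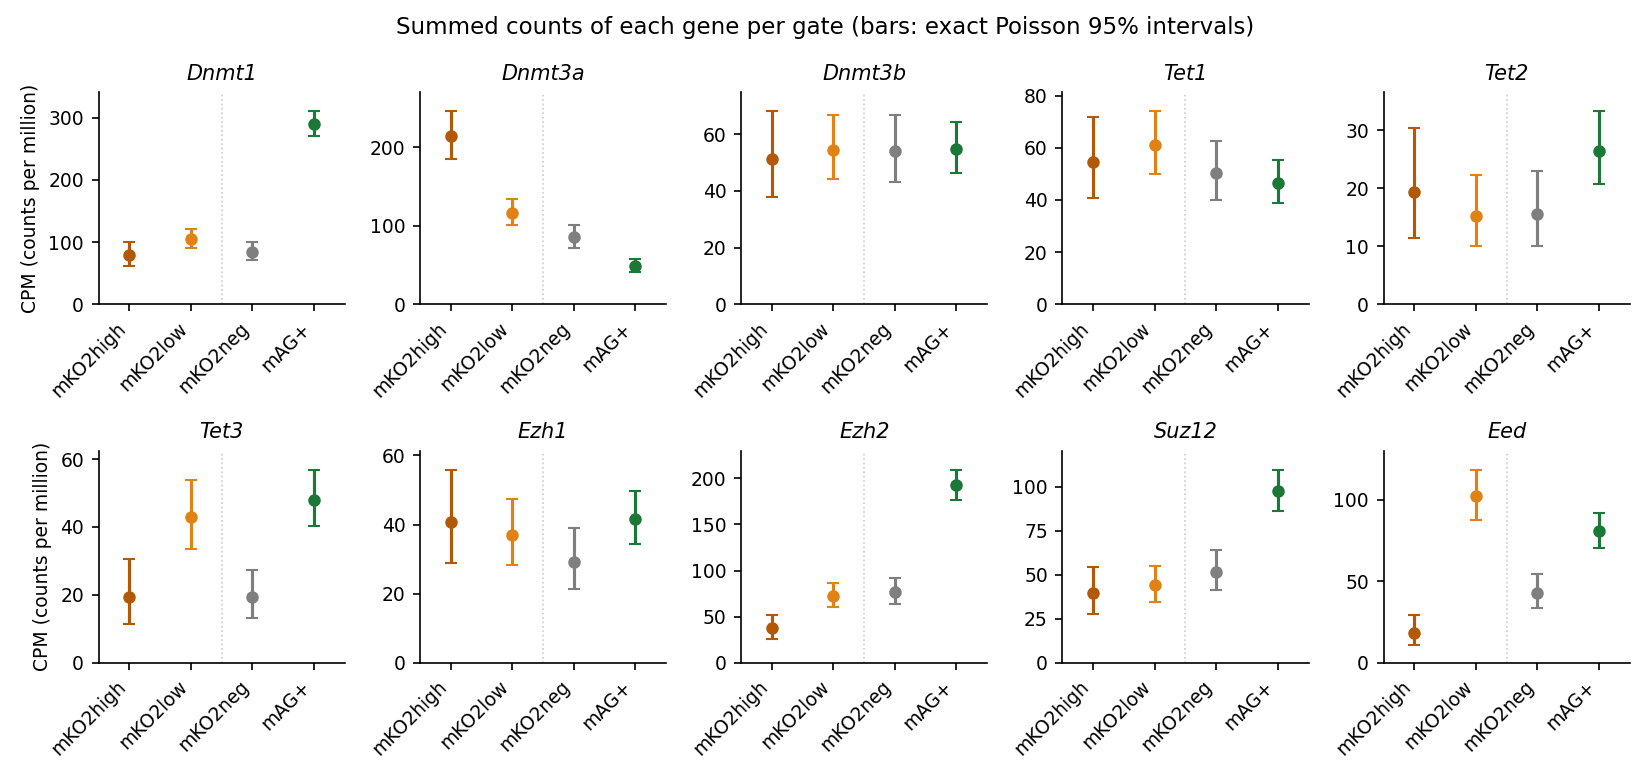
CPM (y axis, starting at 0, with its own scale for each gene) of the 10 genes in each gate (x axis), with exact Poisson 95% intervals as bars; the dotted line separates the libraries. Dnmt1, Ezh2 and Suz12 in mAG+ stand above the other 3 gates (290, 192.4 and 97.4 CPM), Dnmt3a steps down from 214 CPM in mKO2high to 48.4 in mAG+, and Dnmt3b stays between 51.4 and 54.8.

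Shares within a family mix genes that may be captured unequally, so they are compared between gates only. Of the counts of the 3 Dnmt genes, Dnmt1 made up 23.0% in mKO2high (Clopper-Pearson 95% interval 18.5% to 28.0%), 38.0% in mKO2low (33.5% to 42.5%), 37.8% in mKO2neg (32.7% to 43.0%) and 73.7% in mAG+ (71.0% to 76.3%). Dnmt3a made up 62.1% (56.6% to 67.4%), 42.2% (37.7% to 46.8%), 38.1% (33.0% to 43.3%) and 12.3% (10.4% to 14.4%) of the same counts. The Dnmt1 share was thus highest, and the Dnmt3a share lowest, in mAG+ cells. Without the cell holding most Dnmt counts, the Dnmt1 share of mKO2neg was 25.2%, below the interval above, and that of mAG+ was 75.9%. The Dnmt3a share of mKO2high was then 54.2%, also below its interval, and that of mAG+ was 11.6%. Of the Dnmt3a and Dnmt3b counts alone, Dnmt3a made up 80.6% in mKO2high and 68.0% in mKO2low, and 61.2% in mKO2neg and 46.9% in mAG+. Without the cell holding most counts of the pair, these shares were 75.7%, 63.2%, 54.1% and 48.1%. At 5000 counts per cell, Dnmt3a and Dnmt3b had 27 and 9 counts in mKO2high and 32 and 14 in mKO2low. They had 10 and 11 in mKO2neg and 12 and 3 in mAG+, so the falling order was not seen in that single draw. With equal weight for each cell, Dnmt3a and Dnmt3b were at 125 and 61.5 CPM in mKO2high and 121 and 66.9 in mKO2low. They were then at 59.0 and 63.5 in mKO2neg and 55.0 and 59.1 in mAG+.

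**Figure D2:**
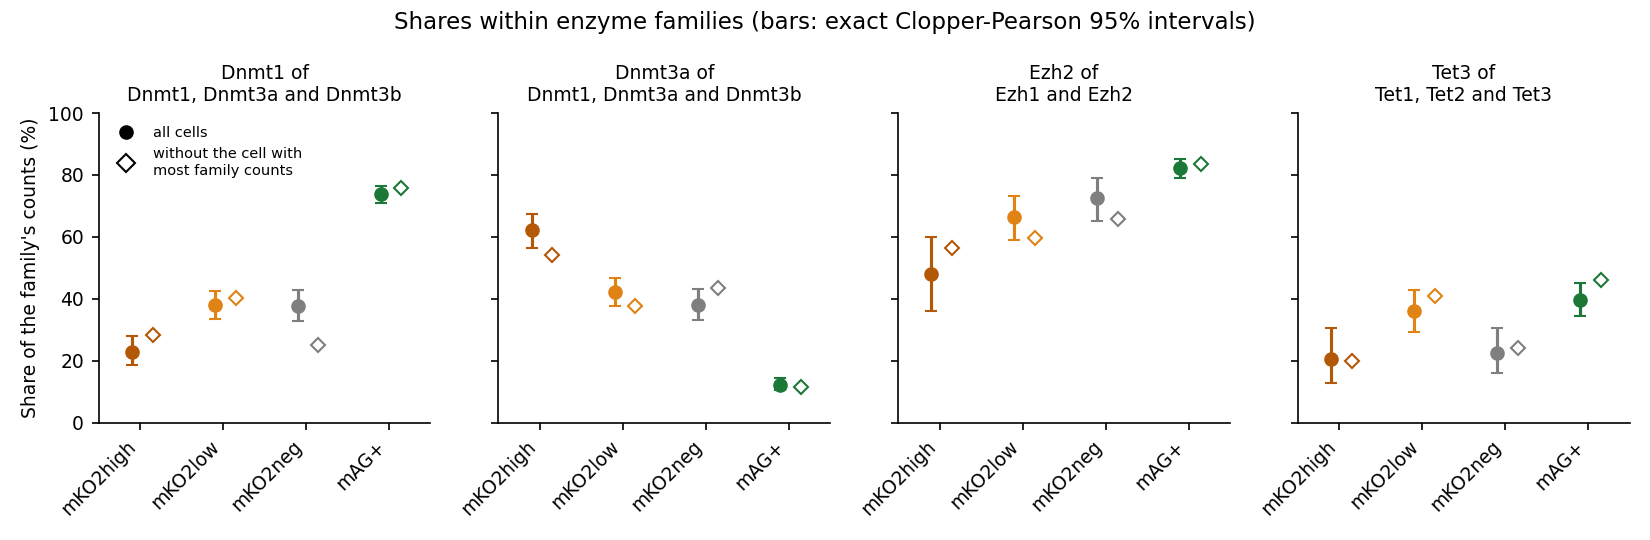
Share of an enzyme family's counts (y axis, percent) held by 1 gene in each gate (x axis); filled circles are all cells with exact Clopper-Pearson 95% intervals, and open diamonds leave out the cell with most counts of the family. The Dnmt1 share goes from 23.0% in mKO2high to 73.7% in mAG+, the Dnmt3a share from 62.1% to 12.3%, and the Ezh2 share from 47.9% to 82.2%.

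Among the dioxygenases, Tet3 was past 2-fold in all 4 comparisons of the gate sums, and Tet1 and Tet2 in none. Tet1 (chr10:62804570-62908996, minus strand) was at 54.6 CPM in mKO2high and 61.1 in mKO2low, and 50.4 in mKO2neg and 46.6 in mAG+, with neighbouring intervals overlapping. A count was present in 12, 16, 12 and 21 of 48 cells. In the thinned draw Tet1 was lower in mAG+, with a log2 ratio of -0.93 against mKO2neg and of -1.69 against mKO2high. These values rested on 5 counts in mAG+ of a single random draw. With equal weight for each cell, Tet1 was at 83.1 CPM in mKO2high, 48.7 in mKO2neg and 45.3 in mAG+. Tet2 (chr3:133463679-133545139, minus strand) was at 19.3, 15.3, 15.5 and 26.5 CPM in the same order, in 7, 5, 6 and 9 cells, and 53.8% of its 26 counts in mKO2low came from a single cell. Its log2 ratio of mAG+ against mKO2neg was 0.75 (0.10 to 1.49), under 2-fold, and that of mKO2low against mKO2high was -0.32, or -1.01 with equal weight for each cell.

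Tet3 (chr6:83362373-83459084, minus strand) was at 19.3 CPM in mKO2high (11.4 to 30.5), 42.9 in mKO2low (33.6 to 53.9), 19.3 in mKO2neg (13.1 to 27.4) and 48.0 in mAG+ (40.2 to 56.9). Of 48 cells, 7, 18, 8 and 20 had a count. The gates thus formed pairs: mKO2low and mAG+ overlapped each other and lay apart from mKO2high and mKO2neg. Within the libraries it was 2.18-fold higher in mKO2low than in mKO2high (log2 ratio 1.12, 0.39 to 1.99) and 2.46-fold higher in mAG+ than in mKO2neg (1.30, 0.74 to 1.93). Both were under 2-fold with the deepest cell of each gate left out, at 0.56 and 0.81, and the former also at equal depth, at 0.43, and with equal weight for each cell, at 0.42. Tet3 made up 20.7% (12.7% to 30.7%), 36.0% (29.4% to 43.0%), 22.6% (15.9% to 30.6%) and 39.6% (34.4% to 45.1%) of the counts of the 3 Tet genes.

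Ezh2, the main catalytic subunit of PRC2 in dividing cells (chr6:47530139-47595341, minus strand), was highest in mAG+. Its level was 37.5 CPM in mKO2high (26.1 to 52.1), 72.8 in mKO2low (60.6 to 86.8), 77.1 in mKO2neg (64.1 to 91.9) and 192.4 in mAG+ (176 to 209). It was counted in 10, 14, 16 and 38 of 48 cells. Only mKO2low and mKO2neg overlapped among neighbours in this order. It was 2.49-fold higher in mAG+ than in mKO2neg (log2 ratio 1.31, 1.04 to 1.61), and at equal depth this ratio was 0.86, under 2-fold. The log2 ratio of mKO2low against mKO2high was 0.94 (0.41 to 1.54) and was 0.02 with equal weight for each cell. It was just past 2-fold at equal depth, at 1.006, and without the top Ezh2 cell of each gate, at 1.003. At equal depth Ezh2 was counted in 7.69%, 14.6%, 20.9% and 48.9% of cells.

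Ezh1, the catalytic subunit more often linked to resting cells (chr11:101191115-101226463, minus strand), was at 40.7 CPM in mKO2high (28.8 to 55.8), 37.0 in mKO2low (28.4 to 47.3), 29.2 in mKO2neg (21.5 to 38.9) and 41.6 in mAG+ (34.3 to 49.8). Neighbouring intervals all overlapped, and it was counted in 11, 13, 13 and 16 of 48 cells. The log2 ratio of Ezh1 in mAG+ against mKO2neg was 0.50 (0.007 to 1.03), under 2-fold. The Ezh2 share of the Ezh1 and Ezh2 counts was 47.9% in mKO2high (36.1% to 59.96%), 66.3% in mKO2low (59.1% to 73.0%), 72.5% in mKO2neg (65.2% to 79.1%) and 82.2% in mAG+ (79.1% to 85.1%). Without the cell holding most counts of the pair, the shares were 56.5%, 59.6%, 65.9% and 83.5%, so mKO2high and mKO2low were closer than their sums show and mAG+ was still the highest.

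Suz12, the subunit that holds PRC2 together (chr11:79993106-80034123, plus strand), was at 39.6 CPM in mKO2high (27.9 to 54.6), 44.0 in mKO2low (34.6 to 55.2), 51.6 in mKO2neg (41.1 to 64.0) and 97.4 in mAG+ (86.2 to 110). It was counted in 9, 19, 13 and 32 of 48 cells, and mAG+ lay apart from the other gates. Against mKO2neg the log2 ratio was 0.91 (0.56 to 1.29), under 2-fold, and at equal depth it was 1.23, with Suz12 counted in 9.30% of mKO2neg and 35.6% of mAG+ cells. Across the libraries it was 2.44-fold higher in mAG+ than in mKO2high.

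Eed, which binds the methylated histone tail (chr7:89954654-89980983, minus strand), had a different order from its partners, with its highest level in mKO2low. It was at 18.2 CPM in mKO2high (10.6 to 29.1), 102 in mKO2low (87.5 to 118.5), 42.9 in mKO2neg (33.4 to 54.3) and 81.0 in mAG+ (70.7 to 92.2). Of 48 cells, 8, 23, 10 and 22 had a count. The intervals of mKO2low and mAG+ overlapped, and those of mKO2neg and mKO2high were apart from them and from each other. It was 5.43-fold higher in mKO2low than in mKO2high (log2 ratio 2.44, 1.77 to 3.30), the highest ratio of the 10 genes within a library. This ratio stayed past 2-fold in all 10 alternatives that gave a value, between 1.64 and 2.72. At equal depth Eed was counted in 2.56% of mKO2high, 20.8% of mKO2low, 16.3% of mKO2neg cells and 9 of 45 mAG+ cells. The log2 ratio of mAG+ against mKO2neg was 0.91 (0.52 to 1.33) and was 0.32 at equal depth.

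**Figure D3:**
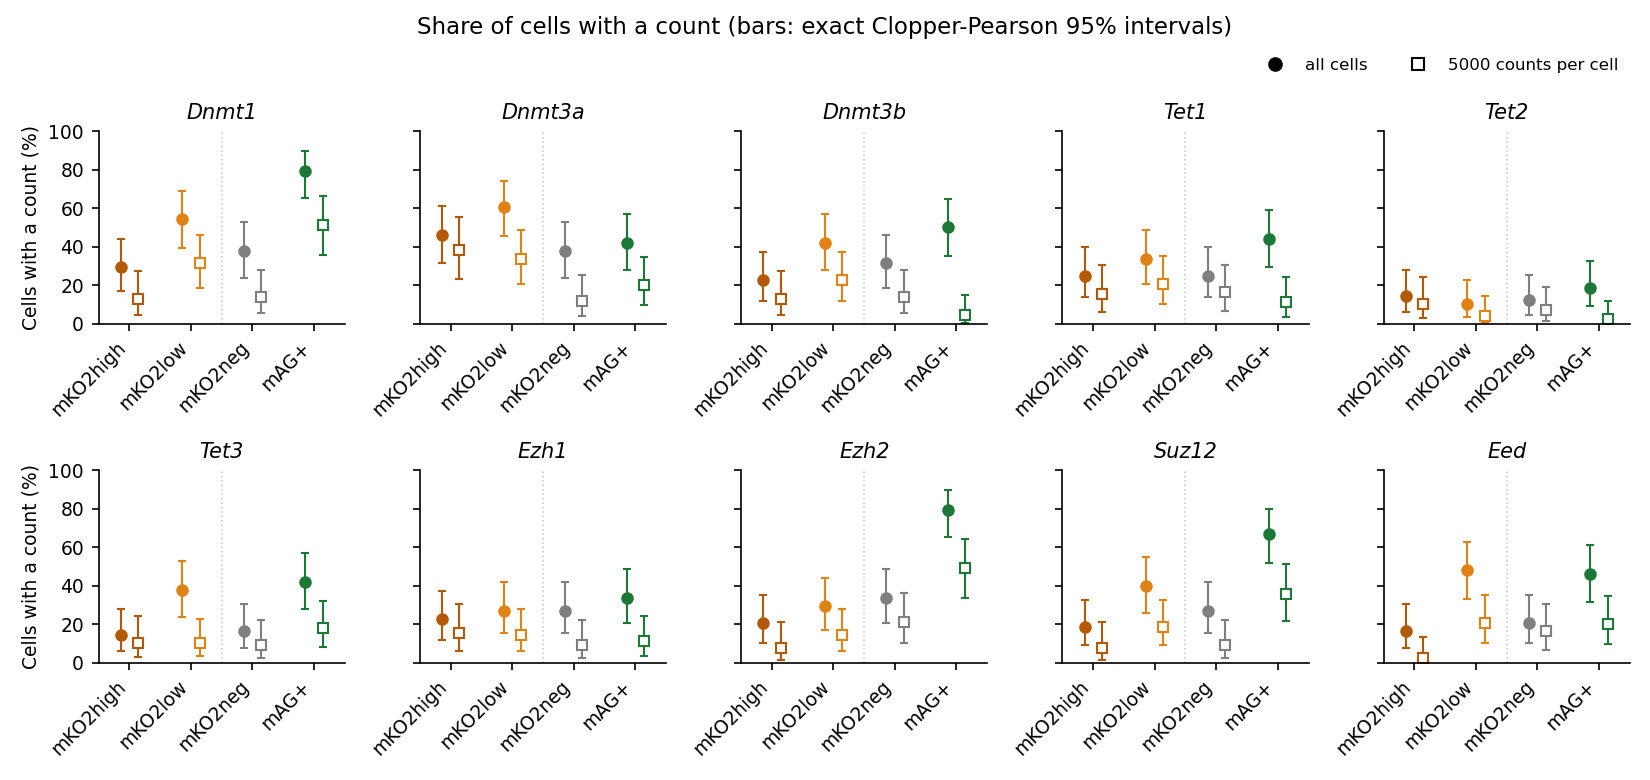
Share of cells with at least 1 count (y axis, percent) of each gene in each gate (x axis), for all 48 cells per gate (filled circles) and for cells thinned to 5000 counts (open squares), with exact Clopper-Pearson 95% intervals. At equal depth Dnmt1, Ezh2 and Suz12 were counted in 51.1%, 48.9% and 35.6% of mAG+ cells, and Dnmt3a in 38.5% of mKO2high cells and 9 of 45 mAG+ cells.

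Set side by side, the comparison of dim with bright orange reporter cells (mKO2low with mKO2high) had 2 of 10 genes at least 2-fold higher (Tet3 and Eed) and 0 lower. Over all 10901 genes with at least 10 counts in these gates, 19.6% were at least 2-fold higher and 15% lower, and the median log2 ratio was 0.15 for the 10 genes and 0.05 for all genes. The comparison of mAG+ with mKO2neg had 3 of 10 higher (Dnmt1, Tet3 and Ezh2) and 0 lower, against 21.2% and 14.6% of 12115 genes. Its median was 0.83 for the 10 genes and 0.06 for all genes. The counts of 2 and 3 of 10 are near these background shares.

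Across the libraries, mKO2neg against mKO2low had 0 of 10 higher and 2 lower, Tet3 at -1.13 (-1.81 to -0.53) and Eed at -1.24 (-1.68 to -0.84), where 15.3% of 11375 genes were higher and 16.7% lower. The median log2 ratio was -0.29 for the 10 genes and 0.01 for all genes. Both lost their 2-fold difference at equal depth, at -0.55 and -0.92, and Tet3 was at -0.50 with the deepest cell of each gate left out. Dnmt1 was at -0.30, and at -1.05 without the deepest cells. Dnmt3a, at -0.45 from all counts, was at least 2-fold lower when cells had equal weight and at equal depth, as given above. The contrast of mAG+ with mKO2high had 5 higher (Dnmt1, Tet3, Ezh2, Suz12 and Eed) and 1 lower (Dnmt3a), where 26.2% of 11849 genes were higher and 17.1% lower. Here Ezh2 was at 2.34 (1.87 to 2.90), Eed at 2.12 (1.44 to 2.96), Dnmt1 at 1.86 (1.53 to 2.23), and the medians were 0.87 for the 10 genes and 0.12 for all genes. Tet3, at 1.29, was under 2-fold when cells had equal weight (0.76), and with the deepest cells left out (0.87). In the thinned draw Tet1 (-1.69) and Dnmt3b (-1.49) were also at least 2-fold lower, on 5 and 3 counts in mAG+. With equal weight for each cell, Tet1 was at 45.3 CPM in mAG+ and 83.1 in mKO2high, and Dnmt3b at 59.1 and 61.5. The low thinned values may thus be error of the single draw. Comparisons with a gate in common share its cells, so they are not independent of each other.

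**Figure D4:**
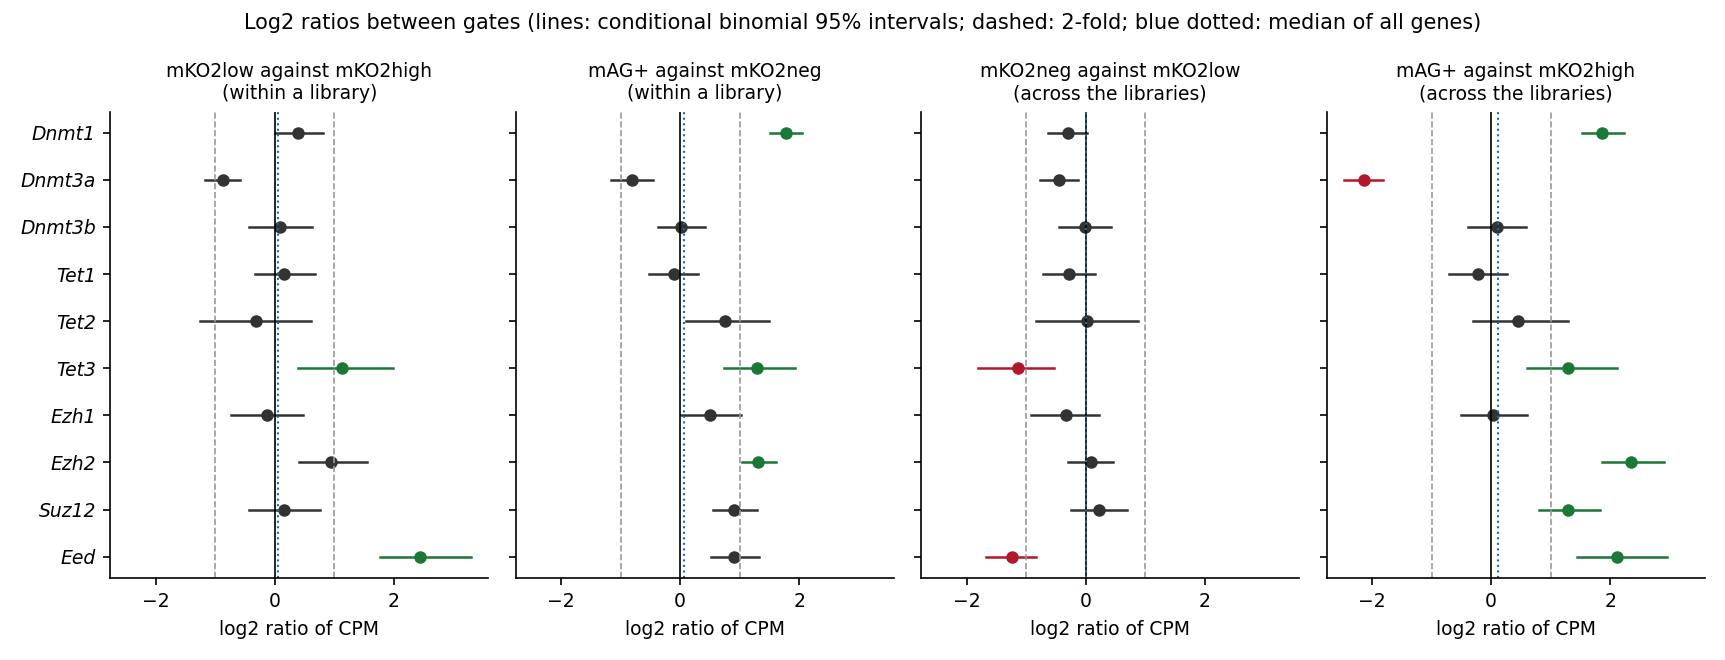
Log2 ratio of CPM (x axis) of the 10 genes (y axis) in each comparison, with conditional binomial 95% intervals; green points are at least 2-fold higher, red at least 2-fold lower, dashed lines mark 2-fold and the blue dotted line the median of all genes. Eed is the highest ratio in mKO2low against mKO2high (2.44), Dnmt1 in mAG+ against mKO2neg (1.77), and Dnmt3a is the lowest in both (-0.88 and -0.81).

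Per cell, the number of the 10 genes with a count had a median of 2 in mKO2high and 3.5 in mKO2low, and 2 in mKO2neg and 5 in mAG+. Median depth was also lowest in mKO2high and highest in mAG+, and with 5000 counts per cell the means were 1.33, 1.92, 1.28 and 2.22. Counts of both Dnmt1 and Ezh2 were found in 3 mKO2high, 8 mKO2low, 7 mKO2neg and 36 mAG+ cells, and of neither in 27, 16, 21 and 8. These numbers were taken at unequal depth. In mAG+ each of the pair was counted in 38 of 48 cells, so many cells with both are found there without any link between the genes. Over the 175 cells with 5000 counts, after subtracting each gate's mean, the genes most like Dnmt1 among 3081 were Gmnn (Pearson r 0.42), Mrpl18 (0.37), Mcm5 (0.33), Tk1 (0.32) and Dut (0.32). These values describe cells of the same libraries and carry no test. For Dnmt3a, Dnmt3b, Tet1, Ezh2, Suz12 and Eed, the highest r was between 0.26 and 0.29, which in counts this sparse is no finding. Tet2, Tet3 and Ezh1 were counted in fewer than 60 cells and were not compared.

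The partners of the DNA methylation enzymes, 24 listed, included 21 with enough counts in each comparison. In mAG+ against mKO2neg, 5 were at least 2-fold higher and 2 lower, the median log2 ratio being 0.22. In mKO2low against mKO2high, 5 were higher and 3 lower, with a median of 0.03. Over all genes 21.2% were higher and 14.6% lower in the former and 19.6% and 15% in the latter, so these counts are near the background. Uhrf1, which guides Dnmt1 to hemimethylated DNA, was at 7.49 CPM in mKO2high and 17.0 in mKO2low, and 93.2 in mKO2neg and 104 in mAG+. The deepest mKO2neg cell held 91.3% of the Uhrf1 counts of its gate, which was at 9.30 CPM without it, and 2, 8, 7 and 29 of 48 cells had a count. Hells, a chromatin remodeller needed for DNA methylation, was at 7.49, 38.7, 74.0 and 135 CPM, in 2, 11, 6 and 34 cells, and 4.79-fold higher in mKO2low than in mKO2high. Without the cell holding most Hells counts in each gate, the levels were 1.08, 27.5, 43.6 and 118 CPM. Mbd4, a repair glycosylase that binds methylated DNA, was 7.08-fold higher in mAG+ than in mKO2neg (38.0 CPM in 21 cells against 4.97 in 3), and 4 of the 8 counts in mKO2neg came from a single cell, without which the level there was 2.53 CPM.

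Of the 9 listed PRC2 partners, 8 had enough counts in mAG+ against mKO2neg, and 3 were at least 2-fold higher and 0 lower, with a median of 0.75. In mKO2low against mKO2high, 2 of 7 were higher and 0 lower. The shares of all genes were 21.2% higher and 14.6% lower, and 19.6% and 15% in the same order, and nothing particular to the list is read from so few genes. Mtf2, which directs PRC2 to CpG-rich DNA, was at 61.0 CPM in mKO2high and 140 in mKO2low, and 92.6 in mKO2neg and 174 in mAG+, in 11, 31, 27 and 35 cells, and at 37.7 CPM in mKO2high without its top cell there. Phf19, a relative of Mtf2, had 100 counts from 18 cells in mAG+, 13 counts from 3 cells in mKO2low, and 0 in mKO2neg and mKO2high. With the 0 counts of mKO2neg set to a floor of 3 counts, Phf19 was 19.2-fold higher in mAG+ than in mKO2neg. This fold depends on the chosen floor and is not a lower limit. The interval of the log2 ratio, for counting error only, began at 3.94, which is less than 19.2-fold, and had no upper end. Rbbp4, a histone-binding subunit, was 2.61-fold higher in mAG+ than in mKO2neg (46.2 CPM in 27 cells against 17.4 in 12).

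Of the 22 listed genes of PRC1, the complex that ubiquitinates histone H2A, 5 of 21 were at least 2-fold higher and 2 lower in mAG+ against mKO2neg, and 3 of 22 higher and 3 lower in mKO2low against mKO2high, near the 21.2% and 14.6%, and the 19.6% and 15%, of all genes. Pcgf1 and Bcor, subunits of the same PRC1 variant, were at 50.4 and 51.6 CPM in mKO2neg, in 13 and 12 cells, above mKO2low at 8.81 and 9.98 and mAG+ at 17.6 and 20.8. A single cell held 44.4% of the Pcgf1 and 39.8% of the Bcor counts of mKO2neg, and without the top cell the levels there were 29.3 and 32.5 CPM. Kdm2b, of the same variant, was highest in mKO2high at 34.3 CPM in 3 cells, and at 12.3 CPM there without its top cell. It was at 0.587 CPM in mKO2low, 2.49 in mKO2neg and 9.31 in mAG+, in 1, 2 and 4 cells. It was named after its values were seen and did not meet the rule for named partners. The last list holds 9 enzymes and enzyme partners that oppose Polycomb. Among them Kdm6b, which removes the H3 lysine 27 mark, was 4.29-fold lower in mAG+ than in mKO2neg (11.1 CPM in 8 cells against 49.1 in 12). A single cell held 58.2% of its mKO2neg counts, without which the level there was 21.4 CPM. Asxl2, a partner of the H2A deubiquitinase Bap1, was at 5.35 CPM in 4 mKO2high cells and 53.4 in 13 mKO2low cells, 8.87-fold higher, and at 3.31 and 41.9 without the top cell of each gate. Of these 9 genes, 1 was at least 2-fold higher and 2 lower in mAG+ against mKO2neg, and 2 higher and 1 lower in mKO2low against mKO2high. The shares of all genes were 21.2% and 14.6%, and 19.6% and 15%, in the same order, and nothing particular to the list is read from so few genes.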

How the data were processed

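Per the labels' protocols, cDNA was made by a modified Smart-seq2 protocol and its 3' ends were enriched. The authors deposited whole-number counts per gene and cell. The submitters' processing notes name HISAT2, HTSeq 0.11.3, Seurat and mm10, with no role or order. Not given in the sources used here are the annotation release, the use of strand in counting and any molecular identifiers. Whether several reads came from the same molecule is therefore unknown, and intervals that treat each read as independent may be too narrow.

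By ID, 53273 of 53378 genes were found in GENCODE vM21, and 105 (0.222% of counts) were not. The counts of each gene were read from the label of the gene before it in that order, for example Dnmt1 from Eif3g and Ezh2 from A930035D04Rik. Under their own labels, Dnmt1, Dnmt3a, Dnmt3b, Tet2 and Tet3 had 0 counts, and Tet1, Ezh1, Ezh2, Suz12 and Eed had 18, 51, 20, 19 and 7. No coding gene overlaps a member. Noncoding genes, some antisense, overlap all except Ezh1, and without strand their reads cannot be told apart.

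Counts were summed over all cells of a gate and scaled to CPM. Log2 ratios used a prior count of 1 and at least 10 counts over both gates, and a call was a difference of at least 2-fold. Poisson and conditional binomial 95% intervals are exact, as are Clopper-Pearson intervals of shares. No test was run, since each gate is 1 sample. For equal depth, cells were thinned to 5000 counts in a single random draw, whose own error was not measured. Thinning excluded 9 mKO2high, 5 mKO2neg, 3 mAG+ and 0 mKO2low cells as too shallow. Doublets were not called, and 0 cell names were shared between libraries. The members and lists were chosen with earlier results of these data known. Named partners other than Kdm2b were at least 2-fold different, with 30 counts or more over both gates and 8 or more cells with a count in the higher gate. The text gives a selection of these. Genes like a member were the 5 with the highest r, for members counted in at least 60 cells. The listed symbol Ezhip was not in the annotation used. Some listed marker genes are not reported here and were left out of the marker sums. Promoter windows came from RefSeq, and all 10 members matched.

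Alternatives were edgeR 4.0.16 TMM factors, DESeq2 1.42.0 size factors, equal weight for each cell (cells with at least 1000 counts), a cell filter, thinning, leaving out each gene's top cell, no count filter, a prior count of 0.5, a threshold of 1.5-fold and the labels as deposited. Scripts were tested on simulated data and run with Python 3.11.15, SciPy 1.17.1 and R 4.3.3.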

Additional observations from a re-analysis of the deposited data

How the results depend on the processing

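Of 94 counts of genes past the threshold recomputed under an alternative, 81 stayed within 1.5 times, as did 40 of 43 medians within their spread, and 24 of the 2-fold calls of single genes changed besides those under the labels as deposited. For mKO2low against mKO2high, the count higher was 1 with equal weight for each cell, 1 without the deepest cell of each gate and 0 with the labels as deposited. The count lower was 1 with equal weight, 1 at a threshold of 1.5-fold and 1 with the labels as deposited. For mAG+ against mKO2neg, the count higher was 6 at 1.5-fold, and the count lower was 1 at 1.5-fold, 1 at equal depth and 1 without the mAG+ cell of B cell markers. At equal depth Dnmt3a in this comparison was at 0.18, the opposite sign. For mKO2neg against mKO2low, the count lower was 1 at equal depth. For mAG+ against mKO2high, the count lower was 3 at equal depth, and the count higher was 3 with the labels as deposited. The medians under those labels were -2.65 (1 gene with enough counts), 3.46 and 2.53 (4 genes each) in mKO2low against mKO2high, mAG+ against mKO2neg and mAG+ against mKO2high, and mKO2neg against mKO2low had no gene with enough counts. Tet2 had too few counts for a ratio at equal depth. The cause of these shifts was not tested, except that thinning and the deposited labels leave fewer counts. Thinning was also a single random draw, so the values at equal depth carry the error of that draw. Leaving out the deepest cells, the B cell marker cell or the top cell of a partner gene were alternatives chosen after seeing the data. At equal depth most single-gene values rest on under 30 counts per gate, which limits them more than the gate sums. No paired analysis was possible because each gate is 1 sample and no replicate numbers exist.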
